A study of Homo sapiens with 6 samples.

Results

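The dual-specificity MAP kinase phosphatases are the 10 genes DUSP1, DUSP2, DUSP4, DUSP5, DUSP6, DUSP7, DUSP8, DUSP10, DUSP14 and DUSP16, taken by name from 60671 gene rows, and all 10 passed the filter on low counts that left 20344 genes for testing. RNA was measured in 3 human lung adenocarcinoma cell lines, A549, HCC827 and H1975, after 48 h with AL-X, the code name of the diterpenoid 9α,11α-dihydroxy-kaurenoic acid, at 10 µg/mL, or with its solvent DMSO. The labels give the genotype of every line as WT. Every line gave 1 DMSO and 1 AL-X library, 6 in all, and no label names further cultures behind a library.

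These enzymes switch off the MAP kinases ERK, JNK and p38 by removing phosphate from both the threonine and the tyrosine of the kinase's activation loop. Many of their genes are themselves switched on by MAP kinase signalling or by stress, so that they form a negative feedback loop. They are usually grouped by where they act and what they act on. DUSP1, DUSP2, DUSP4 and DUSP5 are nuclear and inducible, DUSP6 and DUSP7 are cytoplasmic and select ERK, DUSP8, DUSP10 and DUSP16 prefer JNK and p38, and DUSP14 is a small atypical enzyme that lacks the kinase-binding domain of the others.

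Total counts ranged from 98139178 to 126840915 per library. Genes of the mitochondrial genome took 6.41% to 6.87% of the counts with DMSO and 0.0201% to 0.656% with AL-X. The summed level of 5 epithelial markers was 2777 to 4368 CPM (counts scaled to a common library size) with DMSO and 2125 to 3953 with AL-X, although the sum is mostly KRT8 and KRT18. In A549 EPCAM was at 2.67 and 1.47 CPM, and CDH1 was at 208.7 with DMSO and 15.6 with AL-X. CDKN2A, which is deleted in A549, was at 0 counts in both A549 libraries, and EGFR, which is amplified in HCC827, was highest there at 3652 CPM with DMSO and 2210 with AL-X, against 318.6 and 38.5 in A549 and 443.0 and 296.3 in H1975. Of 4 leukocyte markers PTPRC and CD3E were at 0 in all 6 libraries, the summed leukocyte level was 13.1 to 80.9 CPM with DMSO and 16.2 to 371.6 with AL-X, nearly all of it CD68, and 3 endothelial markers summed to at most 3.41 CPM. The summed level of 4 fibroblast markers was 6.4 to 20.5 CPM with DMSO and 1.17 to 8.89 with AL-X, mostly COL1A1, and the part of these markers in the results was not tested. In such bulk samples a change in the number of cells of a kind and a change of RNA per cell cannot be told apart.

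What the 10 genes share in sequence is the catalytic signature, a stretch that opens with a histidine and the catalytic cysteine and closes with an arginine. It was found once in the principal transcript of each of the 10 genes, within a single exon in all. The coding strand of this stretch, with 1 codon more on either side, is shown for DUSP1, DUSP5, DUSP6, DUSP10 and DUSP14. It is written 5′ to 3′ from GENCODE release 29 on GRCh38, with the codons of the cysteine and the arginine in capitals. The stretches lie at chr5:172769071-172769100 (minus strand) for DUSP1, chr10:110510052-110510081 (plus strand) for DUSP5, chr12:89349500-89349529 (minus strand) for DUSP6, chr1:221702616-221702645 (minus strand) for DUSP10 and chr17:37512597-37512626 (plus strand) for DUSP14.
DUSP1: gtccacTGCcaggcaggcatttccCGGtca
DUSP5: gtccacTGTgaggctgggatctccCGTtca
DUSP6: gtacatTGCttggctggcattagcCGCtca
DUSP10: atccacTGCcaggctggggtgtccCGCtcc
DUSP14: gtgcacTGTgctgcaggggtgagcCGCtca
Over the 45 pairs of the 10 genes, between 17 and 27 of the 30 bases were identical, with the fewest for DUSP4 and DUSP14 and the most for DUSP2 and DUSP4. Sequence outside these bases was not compared.

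In the DMSO libraries each line held a different mixture of these transcripts. The mixture was measured as each gene's share of the summed counts per kilobase of exon of the 10 genes, a measure within a library that no scaling between libraries can alter. In A549 the largest share was that of DUSP4, a nuclear phosphatase of ERK and JNK, at 38.9%, followed by DUSP1 at 19.5% and DUSP5 at 15.5%. In HCC827 the largest share was that of DUSP6 at 40.8%, followed by DUSP16 at 15.6% and DUSP14 at 13.2%. In H1975 it was DUSP5 at 24.9%, followed by DUSP10 at 18.2% and DUSP14 at 17.6%, and the last pair did not differ beyond counting error. DUSP2 and DUSP8 were at the bottom of the order in every DMSO library, with at most 2.2% and 1.54%.

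With AL-X the 3 mixtures all had DUSP5 in first place. Its share was 54.3% for A549, 46.1% for HCC827 and 51.2% for H1975. DUSP1 held 34.3%, 19.1% and 18.4%, and DUSP14 6.81%, 11.6% and 21.6%. The nuclear type together went from 73.9% to 90.2% in A549, from 18.5% to 67.2% in HCC827 and from 42.5% to 71.3% in H1975. Its member DUSP4 did not share in this. The share of DUSP4 went from 38.9% to 1.46% in A549, from 2.42% to 1.34% in HCC827 and from 6.90% to 0.507% in H1975. The cytoplasmic type went from 4.38% to 0.998%, from 47.6% to 8.60% and from 12.5% to 0.905%, and the JNK and p38 type from 15.0% to 1.95%, from 20.6% to 12.6% and from 27.4% to 6.17%. A share can shrink because another member grew, so these shares do not say that a gene's own level changed. The summed level of the 10 genes in TMM-scaled CPM per kilobase was 85.4 and 752.2 in A549 with DMSO and AL-X, 71.0 and 159.2 in HCC827, and 70.3 and 426.3 in H1975.

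**Figure D1:**
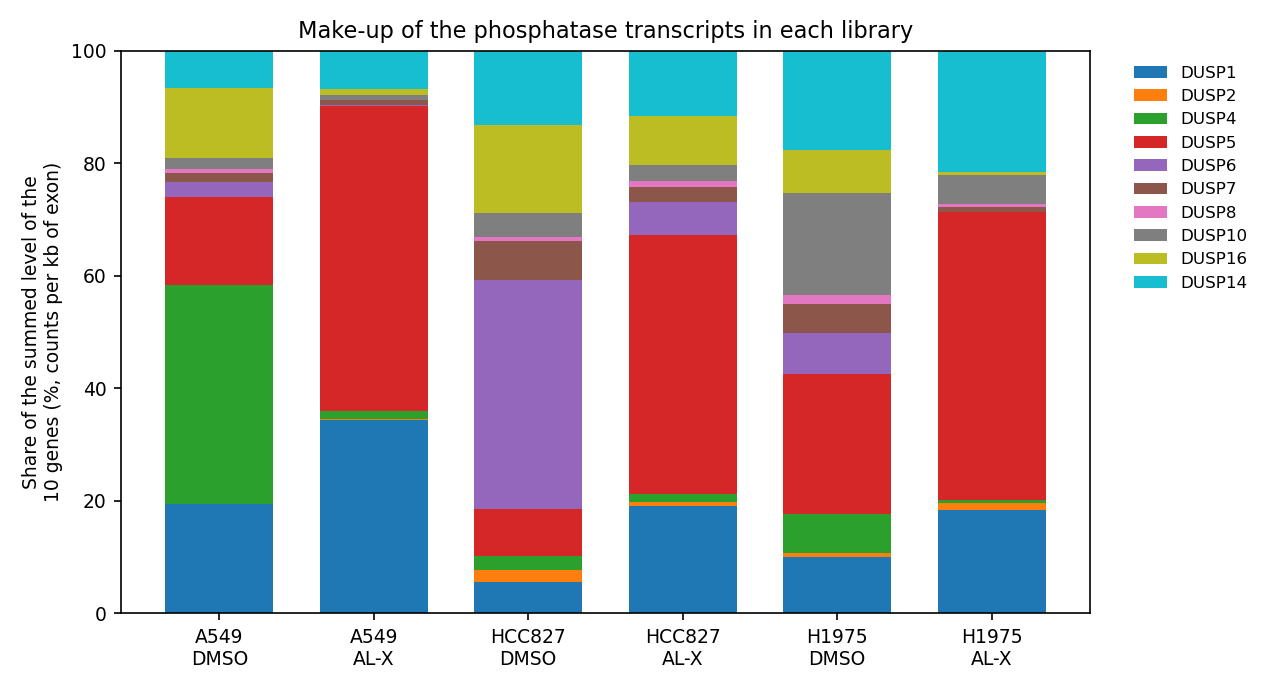
Share of each gene in the summed counts per kilobase of exon of the 10 phosphatases (vertical axis, percent), with 1 bar per library. DUSP4 leads in A549 with DMSO (38.9%), DUSP6 in HCC827 (40.8%) and DUSP5 in H1975 (24.9%), and DUSP5 leads in all 3 AL-X libraries (46.1% to 54.3%).

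The across-line comparison asks which members responded to AL-X alike in the 3 lines. Of the 10 genes DUSP1 and DUSP5 rose, none fell and 8 did not pass the test (edgeR quasi-likelihood test blocked by cell line, Benjamini-Hochberg adjusted p under 0.05 over 20344 genes). At an unadjusted p under 0.05 there were 3 higher (DUSP1, DUSP5 and DUSP14) and 1 lower (DUSP6), a threshold that 15.7% of all genes tested passed, 1114 higher and 2085 lower of 20344. By DESeq2 4 members were higher (also DUSP2 and DUSP14) and 1 lower (DUSP6), against 608 higher and 1409 lower of all 20344 genes. By limma-voom 3 were higher and 1 lower, against 292 and 326. Over all genes tested edgeR called 0.256%, of which 0.0983% higher and 0.157% lower. The median across-line log2 fold was 1.00 for the 10 genes and -0.27 for all genes tested. The 3 lines are the replicates here, and a p-value reflects no more than how much these libraries differ among themselves, which may in part be technical.

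DUSP5 (ENSG00000138166, GRCh38 chromosome 10, 110497838 to 110511544), a nuclear phosphatase that acts on ERK alone and holds it in the nucleus, had the largest across-line fold of the 10. Its level, in TMM-scaled CPM, was 34.7 for A549, 15.7 for HCC827 and 45.8 for H1975 with DMSO, and 1068.0, 191.9 and 571.2 with AL-X. The lowest AL-X library lay above the highest DMSO library, a separation seen in the higher direction for 7.78% of all genes tested. The across-line log2 fold was 4.06 (SE 0.66, edgeR adjusted p = 0.0310, higher in 3 of 3 lines). Within the lines DUSP5 was 30.8-fold higher in A549, 12.2-fold in HCC827 and 12.5-fold in H1975. Among the genes considered in a line, that is tested genes whose higher library reached 5 CPM, only 1.18%, 0.445% and 0.653% had a fold as high.

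DUSP1 (ENSG00000120129, chromosome 5, 172768090 to 172771195), an immediate-early gene whose nuclear product acts on p38, JNK and ERK, was the other member to rise. Its level was 33.6 CPM in A549, 7.85 in HCC827 and 14.2 in H1975 with DMSO, and 520.9, 61.4 and 158.0 with AL-X. The groups did not overlap, and A549 was the highest and HCC827 the lowest line under both treatments. The across-line log2 fold was 3.47 (SE 0.54, edgeR adjusted p = 0.0253, higher in 3 of 3 lines), made of 15.5-fold in A549, 7.81-fold in HCC827 and 11.1-fold in H1975. In the lines 2.43%, 0.714% and 0.755% of the genes considered had a fold as high.

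Both calls depended on the fit, while the size of the folds moved less. With library totals as the only scaling, the adjusted p was 0.0950 for DUSP1 (log2 fold 3.04) and 0.0765 for DUSP5 (3.64), and within the lines DUSP1 was then 7.72-fold, 8.54-fold and 8.35-fold higher in A549, HCC827 and H1975 and DUSP5 15.3-fold, 13.3-fold and 9.38-fold. Without H1975 neither passed (adjusted p = 0.123 and 0.143, log2 folds 3.46 and 4.28), and with mitochondrial genes left out DUSP1 passed narrowly (adjusted p = 0.0497) and DUSP5 did not (adjusted p = 0.0530). With no filter on low counts the adjusted p was 0.173 for both, and without the block by line 0.569 for both. Over all the alternatives tried the across-line log2 fold stayed between 3.04 and 3.73 for DUSP1 and between 3.64 and 4.28 for DUSP5.

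The promoters were searched in windows of 250 bases before the RefSeq start, which were at hand for 8 of the 10 genes (GRCh38.p14; 9 windows, since DUSP10 has more than 1; DUSP4 and DUSP5 were not searched), and all shares below are over 35116 such windows on both strands. The full cAMP response element TGACGTCA, a site bound by CREB and ATF factors, was found, among these 8, in DUSP1 and DUSP8, against 1.65% of all windows. Its core TGACG, which every full element also holds, was found in the same genes, against 21.2%. DUSP1 had 1 full element, at position -125 from the start, and 2 further cores, at -172 and -111. DUSP8 had 2 full elements, at -118 and -74. The 3 windows below show these and, for contrast, DUSP2, another nuclear member, which held neither, with each match of the element or its core in capitals. They are those of DUSP1 at chr5:172771196-172771445, DUSP8 at chr11:1572272-1572521 and DUSP2 at chr2:96145441-96145690, all on the minus strand and written 5′ to 3′ on the strand of the gene.
DUSP1: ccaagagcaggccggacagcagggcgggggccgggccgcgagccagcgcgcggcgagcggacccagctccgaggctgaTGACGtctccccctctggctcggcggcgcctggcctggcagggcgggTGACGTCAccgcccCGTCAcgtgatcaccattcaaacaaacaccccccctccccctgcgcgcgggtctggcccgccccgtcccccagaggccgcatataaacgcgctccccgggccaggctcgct
DUSP8: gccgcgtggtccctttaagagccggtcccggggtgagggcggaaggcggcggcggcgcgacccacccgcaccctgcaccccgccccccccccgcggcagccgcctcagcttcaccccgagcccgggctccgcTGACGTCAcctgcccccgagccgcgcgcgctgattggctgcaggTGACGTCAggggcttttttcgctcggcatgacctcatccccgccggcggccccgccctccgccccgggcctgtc
DUSP2: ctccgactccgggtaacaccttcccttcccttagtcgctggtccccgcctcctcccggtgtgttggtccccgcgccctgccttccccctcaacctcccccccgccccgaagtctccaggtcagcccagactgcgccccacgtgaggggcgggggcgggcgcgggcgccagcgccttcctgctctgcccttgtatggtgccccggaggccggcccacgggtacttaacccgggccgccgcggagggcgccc
The AP-1 site TGANTCA (6.57% of all windows), the ATF4-C/EBP site TGATGNAA (3.14%), the ETS site CCGGAAG (8.52%) and the CArG box of SRF (1.16%) matched in none of the 8 genes. The TATA box TATAAA matched, among the 8, in DUSP1 (10.7%), the E-box CACGTG in DUSP1 and DUSP2 (6.34%), and the GC box GGGCGG in 7 genes, DUSP6 being the exception (42.6%). These are matches of letters in short windows, and binding was not measured. The GC content was 74.0% to 82.8% in the windows of DUSP1, DUSP2, DUSP7, DUSP8, DUSP14 and DUSP16. It was 57.2% for DUSP6 and 56.4% and 55.2% for the windows of DUSP10, against a median of 58% over all windows. The part of this base composition in the matches was not tested.

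The other nuclear phosphatases did not pass the test, and each differed in direction between lines. DUSP2 (ENSG00000158050, chromosome 2), an ERK and p38 phosphatase best known from activated lymphocytes, was low in most libraries. It had 4 counts (0.0328 CPM) in A549 with DMSO and 174 (2.58 CPM) with AL-X, 3.02 and 2.07 CPM in HCC827, and 0.870 and 9.87 CPM in H1975. On the log2 scale the difference was 5.69 in A549 (exact binomial 95% interval 4.92 to 8.19), -0.54 in HCC827 (-0.77 to -0.32) and 3.48 in H1975 (3.22 to 3.80). Such intervals hold the error of counting alone, as reads may be copies of the same molecule. The across-line log2 fold was 3.14 (SE 1.49, edgeR adjusted p = 0.333), and DESeq2 called it higher (adjusted p = 0.0252).

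DUSP4 (ENSG00000120875, chromosome 8), whose nuclear product acts on ERK and JNK, went against DUSP1 and DUSP5 in A549 and H1975. Its level was 241.2 CPM in A549, 12.5 in HCC827 and 35.2 in H1975 with DMSO, and 79.8, 15.5 and 15.7 with AL-X. A549 remained far above the other lines under both treatments, and the AL-X libraries of HCC827 and H1975 were nearly level. The within-line log2 folds were -1.59, 0.31 and -1.17, and the across-line value was -0.83 (SE 0.52, edgeR adjusted p = 0.450). The ratio of DUSP5 to DUSP4 counts, which needs no scaling, went from 0.144 to 13.4 in A549, from 1.26 to 12.4 in HCC827 and from 1.30 to 36.4 in H1975.

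**Figure D2:**
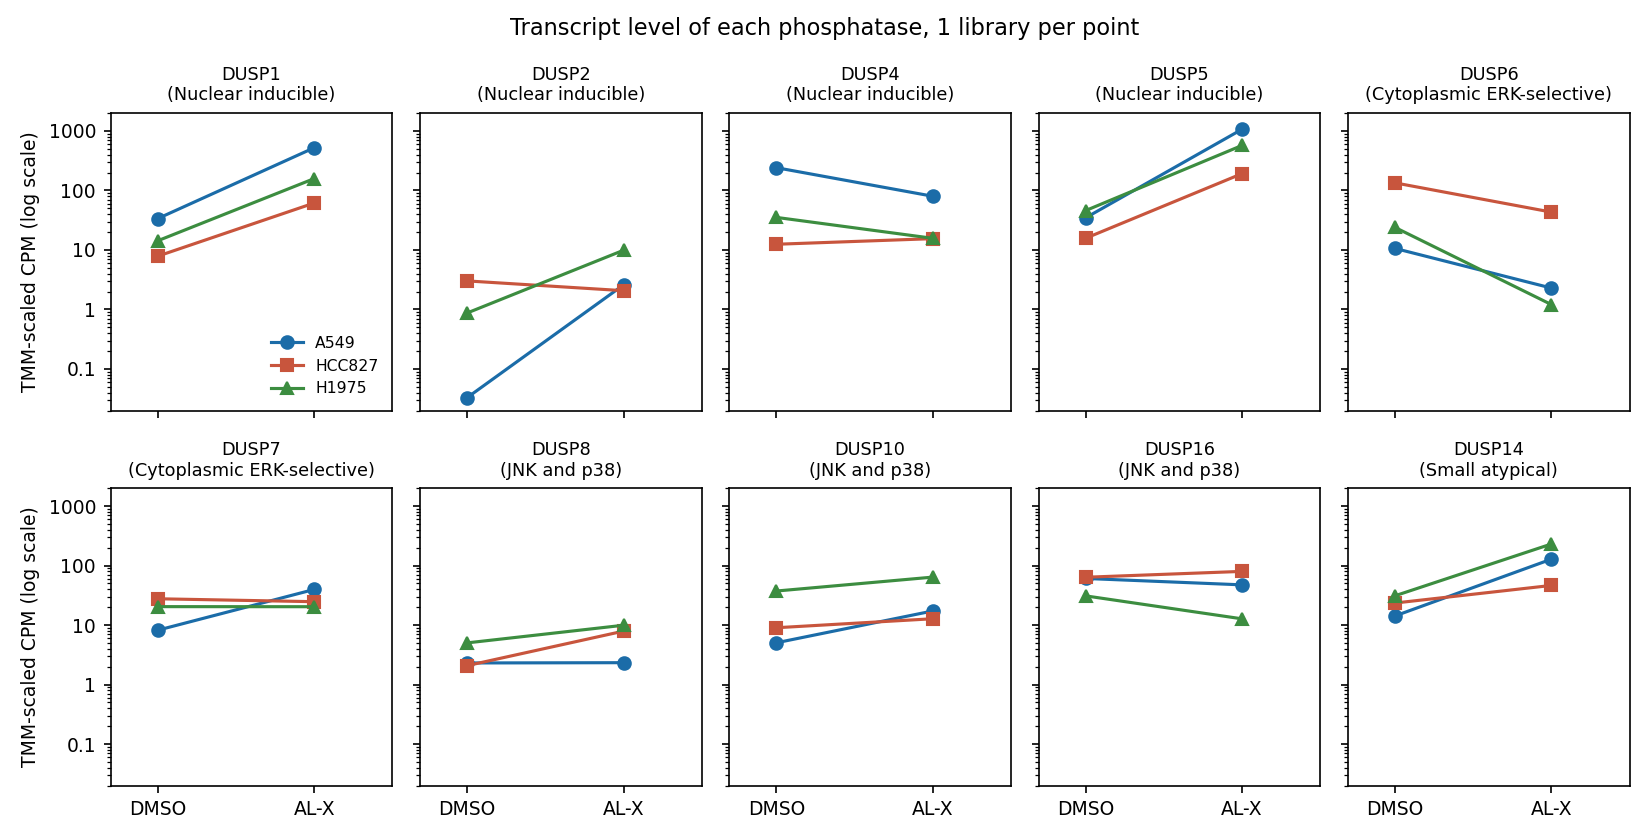
TMM-scaled CPM on a common log axis (vertical) for each phosphatase with DMSO and AL-X (horizontal), each point being 1 library and each line joining the libraries of 1 cell line. DUSP1, DUSP5 and DUSP14 are higher with AL-X in 3 lines without overlap of the groups, as are 7.78% of all genes tested. DUSP6 is lower in 3 lines, and DUSP2, DUSP4, DUSP7 and DUSP16 differ in direction between lines.

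In the cytoplasmic type DUSP6 was lower with AL-X in all 3 lines but missed the threshold. DUSP6 (ENSG00000139318, chromosome 12, 89347232 to 89353271) is a feedback inhibitor that binds ERK directly, and its mRNA is widely read as a gauge of ERK activity. Its level was 10.6 CPM in A549, 134.1 in HCC827 and 23.9 in H1975 with DMSO, and 2.29, 43.2 and 1.21 with AL-X. The groups overlapped, because HCC827 with AL-X was above A549 and H1975 with DMSO, while within each line the AL-X library was the lower. No member had all its AL-X libraries below all its DMSO libraries, against 9.54% of all genes tested. It was 4.61-fold lower in A549, 3.10-fold in HCC827 and 19.6-fold in H1975, and 14.5%, 8.27% and 0.484% of the genes considered in these lines had a fold as low. The across-line log2 fold was -2.68 (SE 0.63, edgeR adjusted p = 0.115, lower in 3 of 3 lines). DESeq2 (adjusted p = 0.00174), limma-voom (0.0438) and the edgeR fit without A549 (0.0461, log2 fold -2.91) called it lower, and over all alternatives the adjusted p ran from 0.00174 to 0.720.

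The counts of DUSP5 and DUSP6 moved apart in each line. The ratio of DUSP5 to DUSP6 counts was 3.27 in A549 with DMSO and 467.2 with AL-X, 0.117 and 4.44 in HCC827, and 1.92 and 473.7 in H1975. It was therefore 143.0-fold, 37.9-fold and 247.3-fold higher, a comparison of genes within a library that does not depend on scaling. HCC827 was the line in which DUSP6 exceeded DUSP5 before treatment, and no line kept that order with AL-X. The ratio shows unequal change and not which of the pair changed.

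DUSP7 (ENSG00000164086, chromosome 3), the other cytoplasmic ERK phosphatase, was higher with AL-X in A549 and nearly level in the other lines. It was at 8.18 CPM in A549, 27.6 in HCC827 and 20.4 in H1975 with DMSO, and at 39.6, 24.7 and 20.3 with AL-X. The log2 fold was 2.27 for A549, -0.16 for HCC827 and 0.00 for H1975, and the across-line value 0.66 (SE 0.64, edgeR adjusted p = 0.613). Without A549 its across-line log2 fold was -0.04. DUSP9, the remaining cytoplasmic member of the family and not one of the 10, was low in A549 (1.31 and 0.787 CPM) and HCC827 (0.699 and 0.521) and at 10.7 and 22.4 CPM in H1975 (across-line log2 fold -0.04, SE 0.74, edgeR adjusted p = 0.985).

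None of the 3 phosphatases of JNK and p38 passed the edgeR test, and none had an unadjusted p under 0.05 or was called by DESeq2 or limma-voom. DUSP10 (ENSG00000143507, chromosome 1), a stress-inducible enzyme, was at 5.03 CPM in A549, 9.01 in HCC827 and 37.3 in H1975 with DMSO, and at 17.2, 12.8 and 63.9 with AL-X. It was higher in every line, by 1.77, 0.50 and 0.78 log2 units, but the groups overlapped, since H1975 with DMSO exceeded the AL-X libraries of the other lines (across-line log2 fold 1.01, SE 0.54, edgeR adjusted p = 0.378).

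DUSP8 (ENSG00000184545, chromosome 11), the JNK phosphatase with a pair of cAMP response elements in its window, was low throughout. Its level was 2.31 CPM in A549, 2.08 in HCC827 and 5.01 in H1975 with DMSO, and 2.33, 7.90 and 9.92 with AL-X. In A549 the log2 fold was 0.02, or -0.98 with library totals, while it was 1.92 for HCC827 and 0.98 for H1975 (across-line log2 fold 0.98, SE 0.79, edgeR adjusted p = 0.547).

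DUSP16 (ENSG00000111266, chromosome 12), which shuttles between cytoplasm and nucleus and favours JNK, was at 60.6 CPM in A549, 63.5 in HCC827 and 30.9 in H1975 with DMSO. With AL-X it was at 47.3, 79.7 and 12.7. The log2 folds were -0.36, 0.33 and -1.28, and the across-line value -0.43 (SE 0.50, edgeR adjusted p = 0.672). With AL-X the HCC827 level was thus the highest and the H1975 level the lowest of the 6 libraries.

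DUSP14 (ENSG00000276023, chromosome 17, 37489831 to 37513501) is the small atypical phosphatase, known as a brake on T-cell receptor and TAK1 signalling. It was the third member whose groups did not overlap, a separation seen in the higher direction for 7.78% of all genes tested. Its level was 14.2 CPM in A549, 23.4 in HCC827 and 31.0 in H1975 with DMSO, and 128.1, 46.3 and 230.3 with AL-X. It was 9.00-fold higher in A549, 1.98-fold in HCC827 and 7.42-fold in H1975. The across-line log2 fold was 2.37 (SE 0.57, edgeR adjusted p = 0.120, higher in 3 of 3 lines). It passed without HCC827 (adjusted p = 0.0491, log2 fold 2.99), with DESeq2 (0.00322) and with limma-voom (0.0229), and its adjusted p over all alternatives ran from 0.00322 to 0.570.

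**Figure D3:**
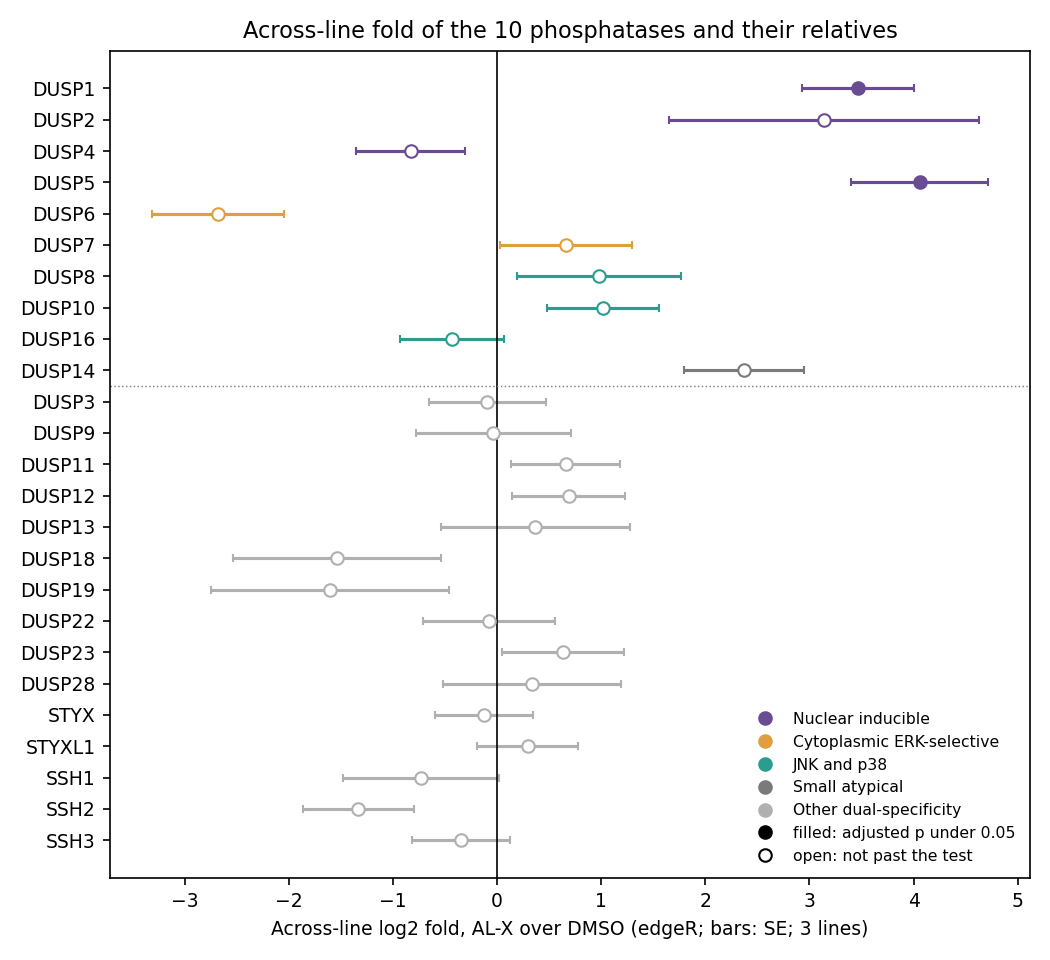
Across-line log2 fold of AL-X over DMSO from edgeR (horizontal axis) with its standard error over 3 lines, for the 10 phosphatases by type and, below the dotted line, the 15 tested relatives. Filled points (DUSP1 at 3.47 and DUSP5 at 4.06) passed an adjusted p of 0.05, and open points did not.

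The within-line comparisons ask how far the types moved in each line. With 1 library per treatment there is no test, and a gene was counted at 2-fold or more. In A549, of 8 members that reached 5 CPM in either library, 5 were at least 2-fold higher (DUSP1, DUSP5, DUSP7, DUSP10 and DUSP14) and 2 lower (DUSP4 and DUSP6), where 30.0% and 31.4% of all genes considered were higher and lower. In HCC827, of 9 members, 3 were higher (DUSP1, DUSP5 and DUSP8) and 1 lower (DUSP6), against 10.7% and 17.2%. In H1975, of 10 members, 4 were higher (DUSP1, DUSP2, DUSP5 and DUSP14) and 3 lower (DUSP4, DUSP6 and DUSP16), against 15.4% and 17.7%. DUSP1 and DUSP5 were at least 2-fold higher in all 3 lines, as were 2.66% of the 10210 genes considered in every line, and DUSP6 was at least 2-fold lower in all 3, against 3.46%. In any size, 5 members were higher in all 3 lines (DUSP1, DUSP5, DUSP8, DUSP10 and DUSP14) and 1 lower (DUSP6), against 16.8% and 25.4% of all genes tested. Of these, DUSP8 in A549 lay within counting error of 0 (0.02, exact binomial 95% interval -0.28 to 0.30), and with library totals it was at -0.98, which would leave 4 members higher in all 3 lines.

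By type, the median within-line log2 fold of the nuclear members considered was 3.95 for A549, 2.97 for HCC827 and 3.48 for H1975. DUSP2 was under 5 CPM in A549 and HCC827, so the median of the 3 nuclear members left there was the fold of DUSP1. DUSP4, of the same type, was at -1.59, 0.31 and -1.17 in the 3 lines. The cytoplasmic pair was also split in A549, with DUSP6 at -2.21 and DUSP7 at 2.27. The median of the cytoplasmic pair was 0.03, -0.90 and -2.15, and that of the JNK and p38 type 0.71, 0.50 and 0.78. The median of all genes considered was 0.00, -0.04 and 0.07. With library totals the medians were 2.95, 3.09 and 3.07 for the nuclear type, -0.97, -0.77 and -2.56 for the cytoplasmic type, -0.30, 0.63 and 0.37 for the JNK and p38 type, and -1.01, 0.09 and -0.34 for all genes considered. In A549 the sign of the cytoplasmic and of the JNK and p38 median therefore turned with the scaling. The order of the types within a line was kept, but this scaling shifts the well-counted genes of a line alike. That order is therefore no check on the result. The medians rest on 2 to 4 genes and carry no test.

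**Figure D4:**
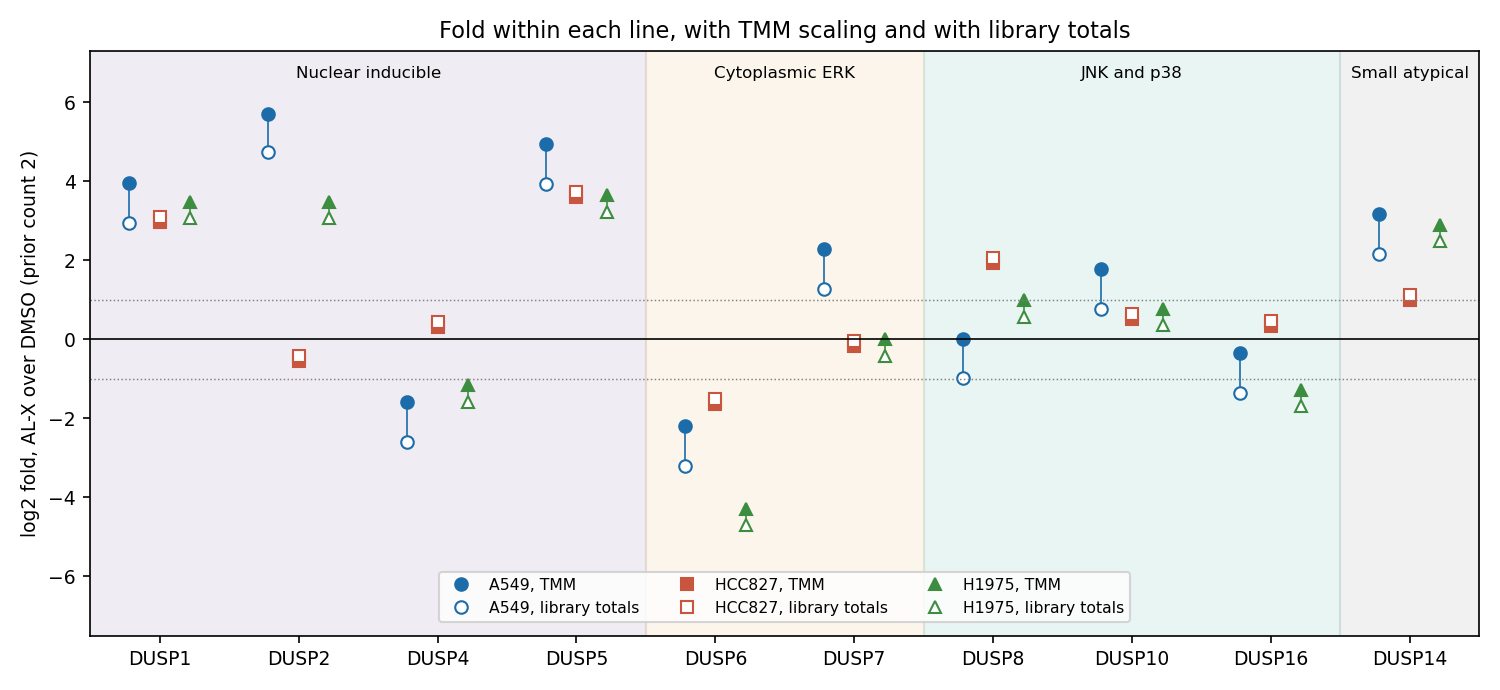
Log2 fold of AL-X over DMSO within each line (vertical axis) for each phosphatase by type, with TMM scaling (filled) and with library totals (open); dotted lines mark 2-fold. DUSP1, DUSP5 and DUSP14 are above 0 and DUSP6 is below 0 in all 3 lines under both scalings, whereas DUSP8 in A549 goes from 0.02 to -0.98.

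The difference between lines was itself tested, each line against the others. None of the 10 genes passed for A549, HCC827 or H1975 by edgeR, DESeq2 or limma-voom. Over all genes edgeR called 0.28% for A549, 0.261% for HCC827 and 0.0% for H1975. At an unadjusted edgeR p under 0.05 there were 2 members for A549 (DUSP2 and DUSP7), 1 for HCC827 (DUSP2) and 0 for H1975, against 11.0%, 8.19% and 1.16% of all genes tested. The effect on DUSP2 in HCC827 was 5.27 log2 units below that in the other lines (difference -5.27, SE 2.00, edgeR adjusted p = 0.337), and that on DUSP7 in A549 was 2.36 units above (SE 1.04, adjusted p = 0.383). The difference for DUSP6 in H1975 was -2.39 (SE 1.48, adjusted p = 1.00). This test has 1 residual degree of freedom, and these intervals are wide.

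Genes of the pathway around the phosphatases were taken from lists chosen with earlier results of these data known. Their counts at an unadjusted p stand beside the 1114 genes higher and 2085 lower of all 20344. Those by DESeq2 stand beside 608 and 1409, and those by limma-voom beside 292 and 326. Of 12 immediate-early genes, which like DUSP1 are switched on within minutes of a stimulus, 1 rose and none fell by edgeR (6 higher and 0 lower at an unadjusted p under 0.05, 5 and 0 by DESeq2, 4 and 0 by limma-voom). The gene that rose was ATF3, a stress-induced transcription factor, with DMSO at 1.17 CPM in A549, 19.2 in HCC827 and 5.36 in H1975, and with AL-X at 182.3, 174.3 and 122.8 (across-line log2 fold 4.91, SE 0.81, edgeR adjusted p = 0.0327). It did not pass with library totals (adjusted p = 0.117) or with mitochondrial genes left out (0.0530). The median within-line log2 fold of the list was 6.25 for A549, 1.01 for HCC827 and 2.74 for H1975. FOSB and FOS, subunits of AP-1, had the largest across-line values, 8.84 (SE 2.67, adjusted p = 0.195) and 7.26 (SE 1.77, adjusted p = 0.120). At the other end were EGR3, at most 0.296 CPM in any library (0.00, SE 0.45), and NR4A1 (0.55, SE 0.68). 

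For 5 of the immediate-early genes the effect in a line passed the test against the other lines, 4 in HCC827 and JUN in A549. In HCC827 EGR1, a zinc finger factor, was at 38.9 CPM with DMSO and 40.4 with AL-X, while it was at 0.394 and 6558.0 CPM in A549 and at 32.2 and 1778.2 in H1975. The AL-X effect on EGR1 in HCC827 was below that in the other lines by the test of the difference (-9.78 log2 units, SE 1.76, edgeR adjusted p = 5.28e-05), and so were those on FOSB (-9.17, SE 1.66, adjusted p = 6.0e-05), FOS (-7.00, SE 1.40, adjusted p = 0.000495) and EGR2 (-13.88, SE 2.62, adjusted p = 0.00014), the last at 0 counts in HCC827 with AL-X, so that its value depends on the fit's prior count. The same difference was -0.75 (SE 1.11, adjusted p = 0.916) for DUSP1 and -0.68 (SE 1.16, adjusted p = 0.932) for DUSP5. Whether DUSP1 and DUSP5 differ from these genes in that respect was not tested. The effect in HCC827 is that of a single pair of libraries. The spread behind each of these tests comes from the other 2 lines, moderated by that of all genes in the fit. None of the 4 differences in HCC827 passed with library totals (adjusted p from 0.187 to 0.687), and that of EGR1 did not pass by limma-voom (0.339).

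Of 13 ERK output genes none passed by edgeR (4 higher and 1 lower at an unadjusted p under 0.05, 4 and 1 by DESeq2, 3 and 0 by limma-voom), and the list held genes on both sides, as the phosphatases did. FOSL1, an AP-1 subunit, was at 2.57 (SE 1.08, edgeR adjusted p = 0.285) and the receptor EPHA2 at 2.36 (SE 0.58, adjusted p = 0.120). At the low end were the ERK pathway inhibitor SPRY1 (-2.13, SE 0.82, adjusted p = 0.254) and the transcription factor ETV4 (-1.40, SE 0.68, adjusted p = 0.341). SPRY4, of the same family as SPRY1, went the other way (2.05, SE 0.50, edgeR adjusted p = 0.120). Its within-line log2 folds were 2.40 for A549, 1.38 for HCC827 and 2.37 for H1975. The median within-line log2 fold was 1.16 for A549, 0.69 for HCC827 and 0.17 for H1975.

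Of the kinases that the phosphatases act on or below, none passed by edgeR. The ERK cascade had 15 genes (1 higher and 3 lower at an unadjusted p under 0.05, 0 by DESeq2 and limma-voom). HRAS (0.97, SE 0.59, edgeR adjusted p = 0.439) was near the upper end and the scaffold KSR1 (-1.79, SE 0.76, adjusted p = 0.287) at the lower. The JNK and p38 cascade had 19 genes (1 higher and 5 lower at an unadjusted p under 0.05, 0 and 2 by DESeq2, 0 and 1 by limma-voom). MAP2K3 (1.55, SE 0.51, edgeR adjusted p = 0.200) and MAP2K6 (-4.16, SE 0.93, adjusted p = 0.109), kinases upstream of p38, stood at opposite ends. MAP2K6 was at 61.5 and 3.96 CPM in A549, had 38 and 1 counts in HCC827 and was at 0 in H1975. MAP2K7 (0.73, SE 0.45) and MAPK10 (-2.18, SE 1.33), which had at most 185 counts, were next to them.

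**Figure D5:**
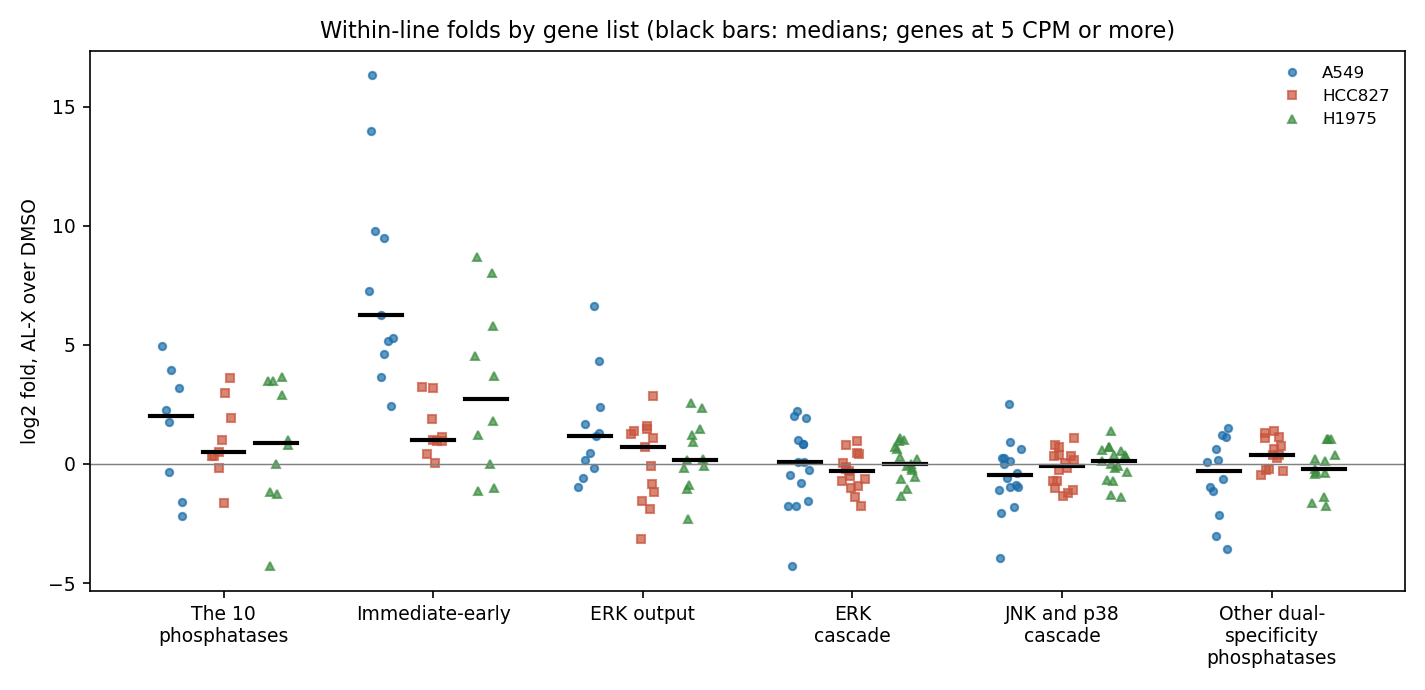
Within-line log2 fold of AL-X over DMSO (vertical axis) for the 10 phosphatases and 5 related gene lists, with each point a gene of at least 5 CPM in the higher library and black bars the medians by line. Immediate-early genes have medians of 6.25, 1.01 and 2.74 in A549, HCC827 and H1975, and the kinase cascades lie around 0.

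By the distance between the folds of 3 lines, taken over 10953 protein-coding genes with a mean of at least 5 CPM, the genes most like DUSP5 were the homeobox gene MSX1 (distance 0.81), DUSP1 itself (1.19) and the cell cycle inhibitor CDKN1A (1.29). Those most like DUSP1 were PLK2 (0.89), CSRNP1 (0.91) and SESN2 (1.00). Those most like DUSP6 were PDIK1L (0.59), NEB (0.63) and SAMD12 (0.72). Each likeness rests on 3 values and has no test.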

How the data were processed

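The values deposited by the authors are raw counts (whole numbers) for each Ensembl gene, with 1 column for each of the 6 libraries. Per the submitters' processing notes, bcl2fastq 2.20 and GRCh38 were used; per the labels' protocols, Trizol was used for the RNA and the SureSelect XT HS2 mRNA kit for the libraries. The aligner, counter, annotation release, strand setting and barcode handling were not given in the sources used here. Antisense models overlap DUSP1, DUSP6, DUSP8 and DUSP16, with at most 93 counts in a library, and cannot be told apart from them without strand.

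IDs were matched to symbols (60401 of 60671) and to GENCODE release 29 (58453) for position and merged exon length. DMSO and AL-X libraries of 1 cell line (a tag of the labels) form a pair, so line was a block. edgeR 4.0.16 in R 4.3.3 was used (TMM, filterByExpr, robust quasi-likelihood test, Benjamini-Hochberg at 0.05, 2 residual degrees of freedom). Standard errors came from the fold and its F value. Within lines, log2 folds of TMM-scaled CPM used a prior count of 2. The alternatives were other scalings, filters, DESeq2 1.42.0, limma-voom (limma 3.58.1), no robust shrinkage, no block, no mitochondrial genes, another prior count or CPM minimum, and each line left out. The scripts were tested on simulated counts.

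The members and lists were chosen with earlier results of these data known. Named were the 10 members, DUSP9, up to 2 genes from either end of each list, every listed gene called, the markers, and the 3 genes nearest in fold to DUSP1, DUSP5 and DUSP6. EGR1, EGR2, JUN, SPRY4, DUSP3, DUSP5P1, DUSP8P5 and DUSP5-DT were chosen after their values were seen. Some listed genes are not reported here.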

Additional observations from a re-analysis of the deposited data

Results flagged for a closer look

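The AL-X effect in a line passed the test against the other lines, adjusted over all genes, for 6 genes of the lists and for none of the phosphatases. In A549 the effect was above that in the other lines for FOSL1 (5.44 log2 units, SE 1.25, edgeR adjusted p = 0.0428) and for JUN (5.30, SE 1.19, adjusted p = 0.0428). JUN was at 25.02 CPM with DMSO and 966.0 with AL-X in A549, 135.4 and 265.8 in HCC827, and 96.6 and 47.4 in H1975. Neither passed with DESeq2 size factors (adjusted p = 0.0721 for both) or with library totals (0.0907 and 0.121). In HCC827 the effect was below that in the other lines for FOS (-7.00 log2 units), FOSB (-9.17), EGR1 (-9.78) and EGR2 (-13.88), with the tests given above. Each test sets 1 pair of libraries against 2 pairs with 1 residual degree of freedom. A gene's own spread thus comes from the other 2 lines, moderated by that of all genes, and none within the tested line was measured.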

How the results depend on the processing

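Across the lines edgeR called 20 genes higher and 32 lower, with 2 phosphatases higher and 0 lower. No gene, and so 0 phosphatases, passed with library totals, with no filter or without the replicate block by line, which left 2792, 3352 and 1722 genes at an unadjusted p under 0.05. DESeq2 called 608 genes higher and 1409 lower, with 4 and 1 phosphatases, and limma-voom 292 and 326, with 3 and 1. Without mitochondrial genes 8 genes were higher and 4 lower, with 1 phosphatase higher. Leaving out a line gave 28 (without H1975) to 127 (without HCC827) genes higher and 57 (without HCC827) to 78 lower, with 0 (without H1975) to 3 (without HCC827) phosphatases higher and 0 to 1 (without A549) lower, the higher genes numbering 65 without A549; with 2 lines 1 residual degree of freedom remained. The across-line log2 fold of DUSP7 was -0.036 without A549, and this was the only one of 120 recomputed member folds to change sign. Of the other named genes, DUSP9 changed sign with limma-voom (0.36), no block (0.89), without A549 (0.38) and without HCC827 (0.14); EGR3 with size factors (0.0040), limma-voom (0.12), no block (0.24), without A549 (0.50) and without HCC827 (0.55); and NR4A1 without A549 (-0.31).

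The test of line differences called 57 genes for A549, 53 for HCC827 and 0 for H1975. With DESeq2 size factors A549 had 24, and with library totals A549 and HCC827 had 0. DESeq2 called 414, 244 and 8, and limma-voom 184 for HCC827 and 2 for H1975. No phosphatase was called under any of these. Within the lines, 28 of 150 recomputed folds moved beyond counting error, all with library totals, and none of the 19 folds of at least 2-fold, DUSP2 in A549 (under 5 CPM) included, changed sign. With library totals the members at least 2-fold higher and lower numbered 4 and 3 in A549, where DUSP10 was at 0.77 and DUSP16 at -1.36, and 4 and 1 in HCC827, where DUSP14 was at 1.11; those in H1975 numbered 4 and 3 as before. That scaling shifts the log2 folds of well-counted genes by -1.01 in A549, 0.13 in HCC827 and -0.41 in H1975. With few counts the prior count alters the shift, as for DUSP2 in A549, which went from 5.69 to 4.74. Depth limits DUSP2 in A549, where 4 counts with DMSO set the fold.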

Other observations

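Of 19 other dual-specificity phosphatases measured, 15 were tested, and none passed by edgeR, DESeq2 or limma-voom. At an unadjusted edgeR p under 0.05, 0 were higher and 1 lower, against 1114 and 2085 of all 20344 genes tested. DUSP3, a small phosphatase of ERK and JNK, was at 103.5 CPM in A549, 62.5 in HCC827 and 97.2 in H1975 with DMSO and at 47.7, 152.1 and 73.6 with AL-X, so that HCC827 went the other way (log2 folds -1.12, 1.28 and -0.40). DUSP19 (across-line log2 fold -1.60, SE 1.14) and DUSP18 (-1.54, SE 1.00) were at the low end. At the high end were DUSP12 (0.69, SE 0.54) and DUSP11 (0.66, SE 0.52), which act mainly in ribosome assembly and on RNA, respectively. The edgeR adjusted p of these genes lay between 0.464 and 0.541. PTPRR, the only tested tyrosine phosphatase of MAP kinases of 3, had 47 counts in A549 with DMSO and 0 with AL-X, 140 and 689 in HCC827, and 424 and 78 in H1975.

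The following counts are of sequence relatives and a neighbour of DUSP5 and DUSP8. The processed pseudogene DUSP5P1 on chromosome 1 had 105 counts with DMSO and 4 with AL-X in A549, 47 and 11 in HCC827, and 407 and 10 in H1975, while DUSP5 had 4224 and 71944, 2317 and 23947, and 5746 and 57795 (DUSP5P1 across-line log2 fold -3.58, SE 1.26, edgeR adjusted p = 0.220). The pseudogene DUSP8P5 had 242 and 96, 266 and 209, and 473 and 30 counts. DUSP5-DT, a non-coding gene on the opposite strand upstream of DUSP5, had 43 and 20 counts in A549, 0 and 178 in HCC827, and 24 and 13 in H1975. How reads shared by such copies were assigned is not given in the sources used here.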
